A study of Homo sapiens with 9 samples.

Results

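The replication-dependent histone genes were followed in cells labelled A549, a human lung adenocarcinoma line, after 24 h with RSL3 and the ferroptosis inhibitor ferrostatin-1 (Fer-1), with RSL3 alone, or with the vehicle DMSO. They were taken by name, as every gene whose symbol carried H2A, H2B, H3 or H4 followed by C and a number, or H1 followed by a number. This gave 66 gene symbols in 63 of the 43444 loci of the expression table, because 3 loci joined a pair of symbols each (H2AC7 with H3C4, H2AC16 with H2BC15, and H2AC17 with H3C12). By family there were 9 loci for H1, 11 for H2A, 15 for H2B, 11 for H3 and 14 for H4, besides the 3 joined ones. The name rule also took H1-10, a linker histone made outside S phase, the testis histone H1-6 and the oocyte histone H1-8.

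RNA was sequenced in 9 libraries, 3 with RSL3 at 2 µM plus Fer-1 at 5 µM, 3 with RSL3 at 2 µM and 3 with DMSO. RSL3 inactivates GPX4, the enzyme that reduces lipid peroxides, and Fer-1 traps the lipid radicals that drive ferroptotic death. Totals ran from 39143521 to 45855255 counts per library, and the histone loci took 0.396 to 0.468% of the counts of named loci. No source tells if the libraries of each group were separate cultures, and p-values therefore measure the spread between these libraries, which may be technical. Whether RNA was selected by its poly(A) tail, and whether strand was kept, is also not stated for these total RNA samples. Of 6 genes taken as markers of A549 cells 5 had a named locus, and EPCAM had none. The keratins KRT8 and KRT18 and the enzyme NQO1 were well expressed (736, 585 and 141 CPM with DMSO). The keratin KRT19 and the enzyme AKR1B10 stood below 1 CPM in the mean of DMSO libraries. CDKN2A and CDKN2B, which A549 cells are known to have lost, were counted at 63.6 and 44.5 CPM with DMSO. The summed fibroblast markers COL1A1, COL1A2, DCN and LUM stood at 9.89 to 11.2 CPM with RSL3 plus Fer-1, at 11.1 to 15.7 CPM with RSL3, and at 86.1, 110.0 and 14.1 CPM in DMSO replicates 1, 2 and 3, none of them at 0 in the mean of the DMSO libraries. Summed blood markers stood between 5.09 and 12.3 CPM and endothelial markers between 1.26 and 2.24 CPM over the 9 libraries. DMSO replicates 1 and 2 therefore stood apart in the summed fibroblast markers, and the total of histone loci called in each comparison is given with and without them. Only 1 of these 4 fibroblast markers was expressed in enough libraries to be tested, so their sum does not show that fibroblasts were present.

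Core histones H2A, H2B, H3 and H4 form the protein spool of the nucleosome, and H1 binds the linker DNA between nucleosomes. Cells make most of them in S phase from clustered, intronless genes, together with the DNA they package. The transcripts of these genes do not normally carry a poly(A) tail but end just after a conserved stem-loop, which is bound by the stem-loop binding protein SLBP and cut through the U7 snRNP. NPAT, a target of cyclin E and CDK2, drives their transcription in nuclear histone locus bodies. In cells that leave the cycle, some histone genes are also read through the stem-loop to give polyadenylated messages.

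The stem-loop, which defines the class, is shown for H2AC8, H2BC4, H2BC9 and H4C2, called in at least 1 comparison below, and for H4C15, which was called in none. The sequences were read from GENCODE 29 transcripts on GRCh38, in the sense of the transcript, with the 16 bases of stem and loop in capitals and 5 flanking bases on each side. The coordinates are those of the capitals, on chr6 at 26217417-26217432 (plus strand) for H2AC8, at 26123472-26123487 (minus) for H2BC4, at 26252055-26252070 (plus) for H2BC9 and at 26026901-26026916 (minus) for H4C2, and on chr1 at 149860769-149860784 (minus) for H4C15.
H2AC8: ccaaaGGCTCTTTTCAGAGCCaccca
H2BC4: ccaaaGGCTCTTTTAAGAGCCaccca
H2BC9: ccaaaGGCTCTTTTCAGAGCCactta
H4C2: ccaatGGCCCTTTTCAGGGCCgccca
H4C15: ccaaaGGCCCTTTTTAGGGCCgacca
The histone stem-loop pattern, of 16 bases with any base allowed at 4 of them, was searched on the sense strand. It was found in a transcript of 29 of the 63 loci, in 40 of their 90 transcripts and in 69 of all 206694 GENCODE 29 transcripts (0.0334%). Many annotated histone transcripts stop near the coding region, so a transcript without the pattern may be cut short of it. In 21 loci a transcript ran over 100 bases past the stem-loop, as the 2060-base H2BC9 transcript did.

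Promoter stretches are shown for H1-4, H1-2, H2BC12, H2BC9 and H4C2, all called in at least 1 comparison below, because the families differ in the motifs they carry there. Each line gives the 120 bases before the RefSeq start (GRCh38.p14), on the strand of the gene, with motif matches in capitals. They lie at chr6:26156209-26156328 (plus) for H1-4, chr6:26056471-26056590 (minus) for H1-2, chr6:27146856-27146975 (minus) for H2BC12, chr6:26251494-26251613 (plus) for H2BC9 and chr6:26027284-26027403 (minus) for H4C2.
H1-4: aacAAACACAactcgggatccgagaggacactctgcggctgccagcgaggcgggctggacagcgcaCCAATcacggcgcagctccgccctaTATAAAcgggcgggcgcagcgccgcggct
H1-2: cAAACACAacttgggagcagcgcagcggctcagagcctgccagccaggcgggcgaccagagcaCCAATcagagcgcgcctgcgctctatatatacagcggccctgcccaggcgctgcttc
H2BC12: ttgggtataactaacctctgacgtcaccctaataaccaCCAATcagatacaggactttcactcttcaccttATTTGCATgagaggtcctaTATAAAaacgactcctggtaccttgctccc
H2BC9: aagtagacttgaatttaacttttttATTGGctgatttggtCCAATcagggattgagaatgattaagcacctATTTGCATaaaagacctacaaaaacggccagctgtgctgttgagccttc
H4C2: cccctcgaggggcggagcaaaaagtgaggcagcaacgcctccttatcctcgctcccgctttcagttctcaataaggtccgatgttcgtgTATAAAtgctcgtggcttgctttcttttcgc
The motifs were the CCAAT box, the TATA box written TATAAA, the octamer ATTTGCAT and the H1 promoter element AAACACA, all searched on both strands over the 250 bases before the start. ATTGG in a printed line is CCAAT on the other strand. Of 65 RefSeq promoters matched to 60 symbols, 83.1% held CCAAT, against 32.0% of 35116 promoters in all, and 66.2% held TATAAA, against 10.7%. The octamer was in 76.9% of H2A and 77.8% of H2B promoters, against 1.63% of all, and AAACACA in 6 of 9 H1 promoters (66.7%), against 4.82%. H4 promoters held CCAAT in only 25% of 12. A match is a description of letters, not of binding.

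Most of the class was well expressed in every group. A level of 1 FPKM or more (fragments scaled to locus length and library depth) was reached in 3 or more libraries by 53 loci, or 56 symbols, and 52 of them reached it in all 9. Group means of at least 1 FPKM were seen for 52 loci with RSL3 plus Fer-1, 52 with RSL3 and 52 with DMSO, and 14 loci averaged at least 100 FPKM over all libraries. The highest were the twin H2A genes H2AC18 (299.6 ± 4.64 FPKM with RSL3 plus Fer-1, 284 ± 17.97 with RSL3 and 273 ± 10.8 with DMSO; SD, n = 3 each) and H2AC19, followed by H4C2, H3C2 and H2BC4. Among linker histones H1-4 led with a mean of 206 FPKM over the 9 libraries, ahead of H1-2 with 113 and H1-5 with 41.7 FPKM. Nearly all of the sequence of H2AC18 and H2AC19 is shared, so their reads cannot be assigned with certainty.

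The 10 loci under the limit were H1-6 and H1-8, H2BC3 and H2BC6, H3C3, H3C6 and H3C11, and H4C6, H4C7 and H4C13. Their means over the 9 libraries lay between 0.00834 FPKM for H1-8 and 0.556 FPKM for H4C6. H1-3 lay just inside the limit, with 3 libraries at 1 FPKM or more and a mean of 0.729 FPKM, and H3C3 lay just outside with 2 such libraries and a mean of 0.549 FPKM. The 10 loci under the limit were left out of the tests. For 7 loci over 90% of all 50-base stretches also occur in another member (H2AC18 and H2AC19, H3C14 and H3C15, H4C14 and H4C15, and H4C12 with H4C11), and their counts are uncertain. In 48 loci this share was under 10%.

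**Figure D1:**
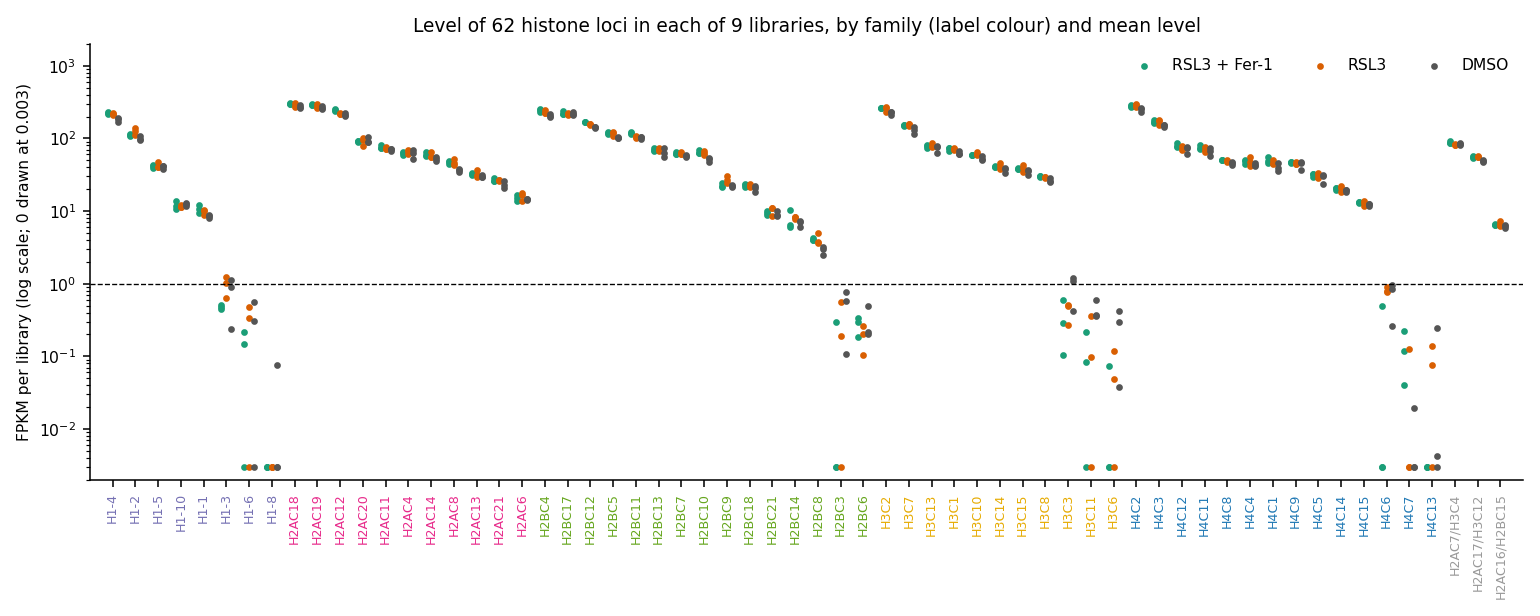
FPKM on a log axis for 62 of the 63 histone loci, grouped by family and ordered by mean level, with 1 point for each of 9 libraries (colour: group; 0 drawn at 0.003; dashed line: 1 FPKM). Most loci lie well above the line with the 3 groups close together, and 10 loci reach it in 2 libraries or fewer.

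Summed over the 63 loci, histone RNA was slightly higher in both RSL3 groups than with DMSO. The sum was 4594, 4664 and 4695 CPM (counts scaled to library size by TMM) with RSL3 plus Fer-1, 4607, 4651 and 4372 CPM with RSL3, and 3925, 4192 and 4282 CPM with DMSO. Means were 4651 ± 51.9, 4543 ± 149.8 and 4133 ± 186 CPM in the same order (SD, n = 3 each). Every library with RSL3, with or without Fer-1, lay above every DMSO library, and the libraries with RSL3 plus Fer-1 and with RSL3 overlapped. The ratio of means was 1.13 for RSL3 plus Fer-1 against DMSO, 1.10 for RSL3 against DMSO and 1.02 for RSL3 plus Fer-1 against RSL3. In these bulk samples, more cells in S phase and more histone RNA per cell cannot be told apart.

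The rise with RSL3 was largest in the H1 sum and smallest in the H2A sum. H1 loci summed to 438, 423 and 392 CPM with RSL3 and to 332, 359.8 and 367 CPM with DMSO, a ratio of 1.18. The ratio was 1.14 for H3, 1.10 for H2B and for H4, and 1.06 for H2A, and in the H2A and H4 sums the libraries of RSL3 and DMSO overlapped. The log2 ratio of the H4 sum was 0.07 without DMSO replicate 1, against 0.13 with all libraries, and that of the H2A sum was 0.05 without RSL3 replicate 2, against 0.08. Whether the families differed from each other was not tested. With RSL3 plus Fer-1 the ratio to DMSO ranged from 1.11 for H2A to 1.16 for H1, and no family's libraries overlapped. The log2 ratio of H4 was 0.10 without DMSO replicate 1, against 0.16 with all libraries. H1-4 made up much of the H1 sum. Its means were 211 CPM with RSL3 plus Fer-1 and 171 CPM with DMSO, where the sums were 408 and 353 CPM. The median log2 change of the 7 tested H1 loci was 0.05 here, below the 0.14 (H2A), 0.17 (H2B), 0.17 (H3) and 0.16 (H4) of the other families. Against RSL3 alone the ratio of sums ranged from 0.976 for H1 to 1.05 for H2A. Only the H2B sum had all RSL3 plus Fer-1 libraries (1388 to 1412 CPM) above all RSL3 libraries (1331 to 1377 CPM). The small ratios against RSL3 moved with single libraries, as the log2 ratio of the H4 sum did, which was -0.01 without RSL3 replicate 3 and 0.03 with all libraries.

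**Figure D2:**
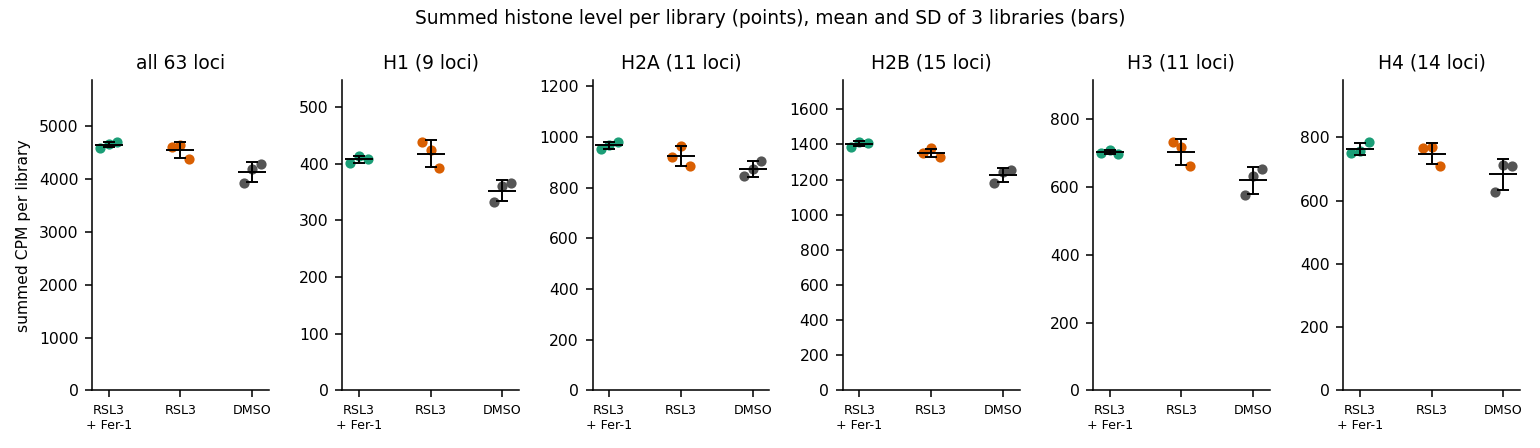
Summed CPM per library of all 63 histone loci and of each family, with RSL3 plus Fer-1, RSL3 and DMSO from left to right (points: libraries; bars: mean and SD of 3 libraries; axes start at 0). In the total, DMSO libraries (3925 to 4282 CPM) lie below all others (4372 to 4695 CPM).

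RSL3 against DMSO asks how the class differed after RSL3. By edgeR's quasi-likelihood test, adjusted over 17297 loci by the Benjamini-Hochberg method, 16 of the 53 tested histone loci were higher with RSL3 at an adjusted p under 0.05 and 0 were lower. That is 30.2% of the members, beside 9.04% of all tested loci called higher. At an unadjusted p under 0.05 there were 26, beside 27% of all loci in either direction, and DESeq2 called 19 of the 52 to which it gave an adjusted p, beside 24.6% of all such loci. Members are mostly well counted, so the share is better read against loci of at least 20 CPM, of which 14.3% were called higher, against 15 of 47 members (31.9%). The median log2 change of the 53 was 0.17, against -0.01 over all tested loci, and 49 of 53 were above 0, against 49% of all loci. In 22 of the 53 no RSL3 library overlapped a DMSO library, all with RSL3 higher, which was the case for 15.8% of all loci. The changes were small, between 1.13-fold and 1.43-fold among the called loci.

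The count was smaller without the DMSO libraries that stood apart. Without DMSO replicates 1 and 2 the fit called 4 members, H1-4, H3C7, H2BC10 and H2BC12, with the single DMSO library assumed to vary like the other groups, and the median fell to 0.09 on the log2 scale. Among all loci the share called then was 8.11%, against 16.5% in both directions with all libraries. DMSO replicate 1 also had the lowest histone sum. Whether the raised fibroblast marker sum of DMSO replicates 1 and 2 has a part in the histone difference was not tested.

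Linker histones were among the clearest members. H1-4, the major linker histone of many dividing cells (chr6:26156329-26157115), stood at 205, 210.4 and 196 CPM with RSL3 and at 158, 177 and 177 CPM with DMSO. All RSL3 libraries were higher, and the log2 change was 0.26 (SE 0.0446, adjusted p = 0.000128, edgeR), which passed without any single library. H1-2, another S-phase linker histone (chr6:26055740-26056470), stood at 124, 112 and 98.1 CPM with RSL3 and at 82.0, 84.8 and 95.1 CPM with DMSO. The groups did not overlap, but the RSL3 libraries spread widely, and the log2 change was 0.36 (SE 0.0768, adjusted p = 0.00473). H1-5, another S-phase linker histone, was not called and had 45.9, 39.3 and 38.8 CPM with RSL3 and 36.2, 40.3 and 39.5 CPM with DMSO, which overlapped (log2 change 0.10, SE 0.0754, adjusted p = 0.469).

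Among H2B genes 6 of 13 tested loci rose, beside 9.04% of all tested loci called higher. H2BC12, the locus with the most histone counts (chr6:27137513-27146855), stood at 311, 320.5 and 318 CPM with RSL3 and at 273, 283 and 285 CPM with DMSO. It was tightly grouped in each condition, and its log2 change was 0.18 (SE 0.0334, adjusted p = 0.000327). H2BC12 overlaps the locus of H4C9 on the other strand, so the split of reads between them is uncertain. Of the 50-base stretches of H2BC12, 22.6% also occur in another member, and 18.7% occur in H2BC6. H2BC4 (chr6:26114873-26123926) had 226, 244 and 227 CPM with RSL3 and 198, 201 and 217 CPM with DMSO, a log2 change of 0.18 (SE 0.0426, adjusted p = 0.00351). H2BC10 (chr6:26272931-26273412) had 34.0, 38.5 and 37.0 CPM with RSL3 and 31.3, 29.9 and 27.5 CPM with DMSO, a log2 change of 0.30 (SE 0.0768, adjusted p = 0.00566). In both genes every RSL3 library lay above every DMSO library.

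H2BC9 (chr6:26251651-26253710) had 74.4, 66.1 and 59.5 CPM with RSL3 and 52.1, 56.3 and 54.6 CPM with DMSO. The RSL3 libraries were higher but far apart (log2 change 0.29, SE 0.0702, adjusted p = 0.00363), and without RSL3 replicate 1 the call was lost (adjusted p = 0.0527). It was also lost with limma on log2(FPKM + 1), where the adjusted p was 0.0521. H2BC5 and H2BC8 were the other H2B genes called. H2BC17, the most abundant of the uncalled H2B loci by FPKM, had 121, 117 and 124 CPM with RSL3 and 116, 129 and 120.1 CPM with DMSO, and the log2 change of -0.01 (SE 0.0485, adjusted p = 0.909) had the other sign, at 0.01, without DMSO replicates 1 and 2.

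Among H2A genes 1 of 11 rose and among H4 genes 2 of 11, beside 9.04% of all tested loci called higher. H2AC8 (chr6:26216975-26217483) had 28.1, 31.7 and 26.1 CPM with RSL3 and 23.1, 20.8 and 22.3 CPM with DMSO, apart in every library (log2 change 0.38, SE 0.0859, adjusted p = 0.00236). H4C2 (chr6:26026815-26027252), the H4 locus with the highest FPKM, had 152, 157 and 141 CPM with RSL3 and 120.5, 136 and 133 CPM with DMSO, again without overlap (log2 change 0.21, SE 0.0486, adjusted p = 0.00306). H2AC11 and H4C15 were not called, with log2 changes of 0.07 (SE 0.0424, adjusted p = 0.331) and 0.08 (SE 0.0608, adjusted p = 0.426).

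Among H3 genes 3 of 8 rose (H3C2, H3C7 and H3C10), and 1 of the 3 joined loci, beside 9.04% of all tested loci called higher. H3C7 (chr6:26250142-26250635) had 94.6, 94.4 and 88.2 CPM with RSL3 and 68.8, 84.0 and 77.5 CPM with DMSO, all higher with RSL3 (log2 change 0.27, SE 0.0600, adjusted p = 0.00199). The joined locus of H2AC17 and H3C12 (chr6:27890011-27893185) had 98.3, 95.5 and 96.2 CPM with RSL3 and 83.8, 81.3 and 87.6 CPM with DMSO (log2 change 0.20, SE 0.0486, adjusted p = 0.00441). Here the groups were far apart for their spread, but the locus value cannot be divided between its H2A and H3 gene. H3C14 missed the threshold (log2 change 0.19, SE 0.0660, adjusted p = 0.0575) and passed it when DMSO replicate 3 was left out (adjusted p = 0.0405), when RSL3 replicate 3 was (0.00737) and with DESeq2 (0.0389).

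**Figure D3:**
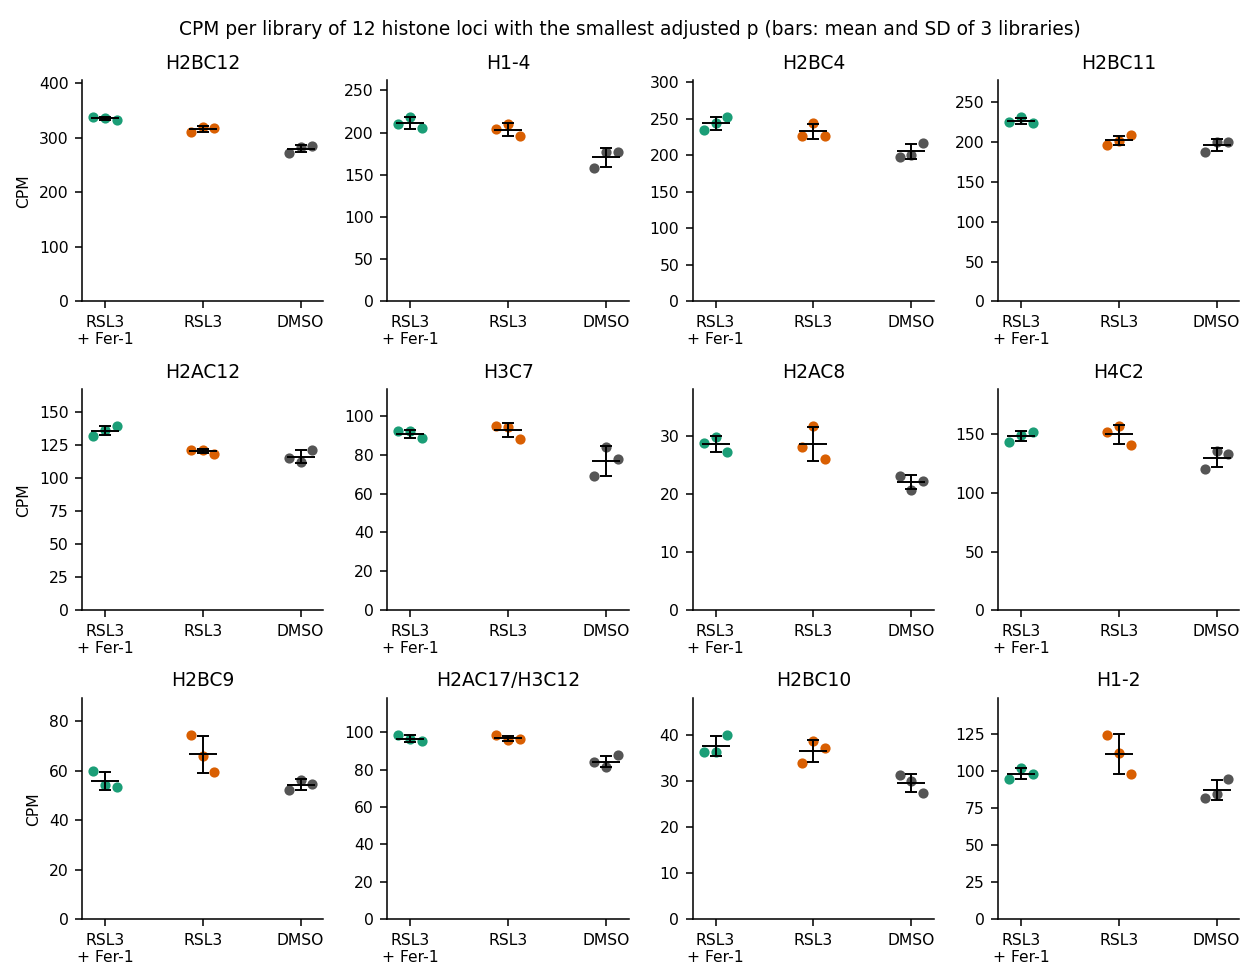
CPM per library of the 12 histone loci with the smallest adjusted p in any comparison, with RSL3 plus Fer-1, RSL3 and DMSO from left to right (points: libraries; bars: mean and SD of 3 libraries; axes start at 0). H1-4, H3C7, H2AC8 and H2BC10 are alike in both RSL3 groups and lower with DMSO, H2BC11 and H2AC12 are highest with RSL3 plus Fer-1, and H2BC9 is highest with RSL3.

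RSL3 plus Fer-1 against RSL3 asks whether Fer-1 changed the histone response. Of the 53 tested loci 2 were higher with Fer-1, H2BC11 and H2AC12, and 1 was lower, H2BC9, beside 2.47% of all tested loci called higher, 3.99% called lower and 6.46% in both directions. The median log2 change was 0.02, against 0.00 over all loci, and 30 of 53 lay above 0, against 50.7% of all loci. Without R_F replicate 2 (R_F is the label of the RSL3 plus Fer-1 libraries) 0 members were called, beside 4.32% of all loci. Without R_F replicate 3 there was 1, beside 5.11%, and without RSL3 replicate 3 the median was -0.02. At an unadjusted p under 0.05 there were 7, beside 17.5% of all loci. Without DMSO replicates 1 and 2 the same 3 loci were called.

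H2BC11 (chr6:27102069-27132795) stood at 225, 231 and 223 CPM with RSL3 plus Fer-1, at 196, 201 and 208 CPM with RSL3, and at 188, 200.13 and 200.01 CPM with DMSO. The libraries with Fer-1 stood above all 6 others. Its log2 change against RSL3 was 0.17 (SE 0.0388, adjusted p = 0.00683), and 0.0554 was the adjusted p without R_F replicate 2. The locus overlaps AL021807 and RNU2-62P, so part of its reads may belong to them. H2AC12 (chr6:27147106-27147562) stood at 132, 136 and 139 CPM with RSL3 plus Fer-1, at 121, 121 and 118 CPM with RSL3, and at 115, 112 and 121 CPM with DMSO. It too was highest in the 3 libraries with Fer-1, with a log2 change of 0.18 against RSL3 (SE 0.0437, adjusted p = 0.0118) that missed the threshold without R_F replicate 2 or 3 (adjusted p 0.0515 and 0.0722).

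H2BC9 moved the other way. It stood at 59.9, 54.2 and 53.4 CPM with RSL3 plus Fer-1, beside the 59.5 to 74.4 CPM of RSL3, and the libraries of these groups overlapped by 1 sample. The log2 change was -0.26 (SE 0.0700, adjusted p = 0.0242), and it was lost without RSL3 replicate 1 or 2 or R_F replicate 2 or 3 (adjusted p 0.0632 to 0.231) and with limma (0.143 on log2(FPKM + 0.1)). H1-2 had 94.9, 102 and 98.2 CPM with RSL3 plus Fer-1, between the means of the other groups, and its log2 change of -0.18 against RSL3 did not pass (SE 0.0765, adjusted p = 0.225), except without RSL3 replicate 3 (0.00892). The other members did not pass the adjusted threshold in this comparison, among them H2BC12, whose RSL3 plus Fer-1 libraries all lay above the RSL3 libraries (log2 change 0.09, SE 0.0333, adjusted p = 0.147).

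RSL3 plus Fer-1 against DMSO sets the cells given both agents beside the vehicle. Here 17 of the 53 tested loci were higher with RSL3 plus Fer-1 and 0 were lower, or 32.1%, beside 4.03% of all tested loci called higher and 6.69% called in either direction. Among loci of at least 20 CPM 17 of 47 members were called higher (36.2%), against 7.08% of all such loci, of which 5.04% were called lower. At an unadjusted p under 0.05 there were 31, beside 17.9% of all loci in either direction. DESeq2 called 21 of 52, beside 11.8% of all loci with an adjusted p, and limma on log2(FPKM + 1) called 8 of 53, beside 2.92%. The median log2 change was 0.17, against 0.00 over all loci, and 50 of 53 lay above 0, against 49.9%. In 31 of the 53 the groups did not overlap, all with RSL3 plus Fer-1 higher, beside 12.2% of all loci. The 31 include both loci of the pairs H2AC18 and H2AC19, H3C14 and H3C15, and H4C14 and H4C15. The 17 include both H2AC18 and H2AC19. Loci of such a pair share over 90% of their 50-base stretches and are not separate observations. This comparison shares its DMSO libraries with that of RSL3 alone, so their results are not independent.

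Without DMSO replicates 1 and 2 only H1-4, H2BC10 and H2BC12 were called, and the median fell to 0.09 on the log2 scale, beside 2.56% of all loci called in either direction. Without DMSO replicate 1 alone 9 members were called, without R_F replicate 2 there were 10 and without R_F replicate 3 there were 11. In these fits 5.25, 4.39 and 4.11% of all loci were called in either direction, against 6.69% with all libraries. Whether the raised fibroblast marker sum of DMSO replicates 1 and 2 has a part in these counts was not tested.

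H2BC12 had the smallest adjusted p of any member. It stood at 338, 337 and 333 CPM with RSL3 plus Fer-1, against 273 to 285 CPM with DMSO, a log2 change of 0.26 (SE 0.0334, adjusted p = 4.2e-06). H1-4 had 210.3, 218 and 205 CPM with RSL3 plus Fer-1, against 158 to 177 CPM with DMSO, a log2 change of 0.31 (SE 0.0445, adjusted p = 3.04e-05). Both lay above DMSO in all libraries and passed without any single library. H2BC4 had 234, 244 and 252 CPM with RSL3 plus Fer-1 (log2 change 0.25, SE 0.0426, adjusted p = 0.000331). H2BC10 had 36.3, 36.2 and 39.9 CPM (log2 change 0.34, SE 0.0766, adjusted p = 0.00456), and H2AC8 28.8, 29.9 and 27.2 CPM (0.38, SE 0.0857, adjusted p = 0.00567). These 3 also kept apart from all DMSO libraries.

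H2BC11 and H2AC12, which RSL3 alone had not moved past the threshold (log2 changes 0.04 and 0.05, SE 0.0388 and 0.0438), were 0.21 and 0.23 above DMSO on the log2 scale with RSL3 plus Fer-1 (adjusted p 0.000744 and 0.00111). H3C7 had 92.0, 91.9 and 88.3 CPM and a log2 change of 0.24 (SE 0.0599, adjusted p = 0.0116), lost without DMSO replicate 1 (0.109) and with limma (0.0985 on log2(FPKM + 1)). H4C2 had 144, 149 and 152 CPM and a log2 change of 0.19 (SE 0.0485, adjusted p = 0.0139), lost without DMSO replicate 1 (0.126) or R_F replicate 2 or 3 (0.0551 and 0.0764) and with limma (0.111 on log2(FPKM + 1)). The joined H2AC17 and H3C12 locus had 98.4, 96.0 and 95.2 CPM and a log2 change of 0.20 (SE 0.0485, adjusted p = 0.0111), lost without DMSO replicate 2 (0.0714). For H2BC9 and H1-2 the changes against DMSO were 0.04 (SE 0.0702, adjusted p = 0.86) and 0.17 (SE 0.0767, adjusted p = 0.246).

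The other called loci were H2BC5, H3C2, H3C8, H4C1, H4C8, H2AC18 and H2AC19, between 1.11-fold and 1.26-fold above DMSO. H2AC18 and H2AC19 had nearly the same log2 change, 0.14 each (adjusted p 0.0470 and 0.0483), and since they share their sequence they are best counted as 1 observation. By family 1 of 7 tested H1 loci, 4 of 11 H2A, 5 of 13 H2B, 3 of 8 H3, 3 of 11 H4 and 1 of 3 joined loci were called. Among all tested loci 4.03% were called higher in this comparison.

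**Figure D4:**
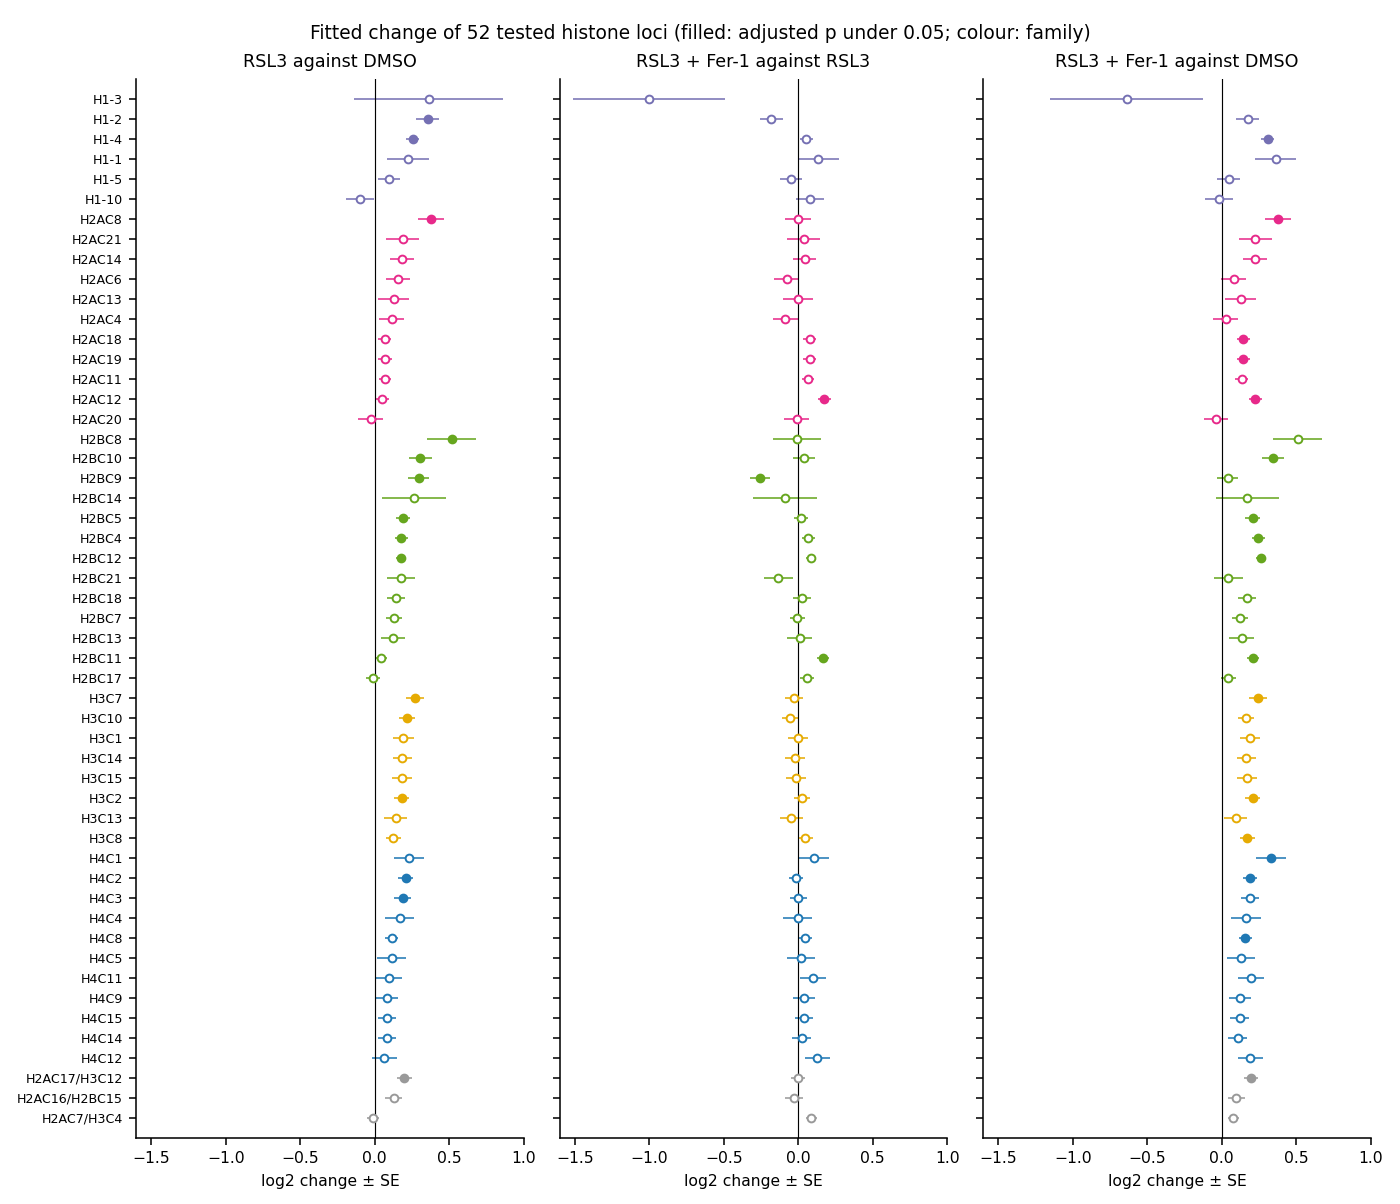
Fitted log2 change with its SE (bars) for 52 of the 53 tested histone loci in the 3 comparisons, on the same scale, grouped by family (colour). Filled points passed an adjusted p of 0.05, and in both comparisons with DMSO nearly all points lie right of 0, while in RSL3 plus Fer-1 against RSL3 they scatter around 0; H1-3, with few counts, has the widest bars.

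The share of members called is given by genome position, and the difference between positions was not tested. The proximal group on chromosome 6 (31 loci) had 24 tested, of which 12 were higher with RSL3 than with DMSO, and 11 with RSL3 plus Fer-1. The distal group on the same chromosome (18 loci) had 16 tested, of which 3 and 4 were higher in these comparisons. The cluster on chromosome 1 (11 loci) had 0 and 2 higher of 11, the 2 being H2AC18 and H2AC19, which are best counted as 1 observation. Among all tested loci 9.04% and 4.03% were called higher in these comparisons. By unadjusted p under 0.05 there were 3 and 5 on chromosome 1, beside 27% and 17.9% of all loci in either direction. Both counts include H3C14 and H3C15, whose 50-base stretches are all shared, and the 5 also include H2AC18 and H2AC19. Each of these pairs is best counted as 1 observation. Median log2 changes were closer than these counts: 0.19 and 0.19 in the proximal group, 0.11 and 0.17 in the distal group, and 0.14 and 0.14 on chromosome 1. Loci spanning under 1000 bases and longer ones were called in like numbers, 8 of 28 and 8 of 25 with RSL3 against DMSO, and 10 of 28 and 7 of 25 with RSL3 plus Fer-1 against DMSO.

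Histone genes often sit head to head, and 10 such pairs of loci had starts within 500 bases of each other on opposite strands. In the pair of H2BC8 and H2AC8 both genes were higher with RSL3 than with DMSO, by 0.52 (SE 0.164, adjusted p = 0.0292) and 0.38 on the log2 scale. H2BC8, singled out after its values were seen as the largest fold among the called members, is scarce at 9.25, 6.68 and 6.91 CPM with RSL3 and 4.62, 5.54 and 5.80 CPM with DMSO. In the pair of H2BC12 and H2AC12, 251 bases apart, the changes with RSL3 against DMSO were 0.18 and 0.05, and only that of H2BC12 passed. In the pair of H2AC17 with H3C12 and H2BC17, 240 bases apart, they were 0.20 and -0.01. Neighbours with a shared upstream region thus did not always have the same call, and whether their changes differed was not tested.

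The transcription and processing factors of histone messages were mostly not called. Of 30 such genes 0 rose and 3 fell against DMSO, beside 9.04% higher and 7.46% lower among all loci. SLBP stood at 73.5 ± 2.25 CPM with RSL3 and 74.4 ± 1.52 CPM with DMSO, and NPAT at 90.3 ± 3.03 and 90.5 ± 4.32 CPM (SD, n = 3 each; adjusted p 0.897 and 0.986). The 3 that fell were CPSF2, a scaffold of the cleavage complex, CSTF3 and the Sm protein SNRPF, with log2 changes of -0.16, -0.23 and -0.31. With RSL3 plus Fer-1 against RSL3 1 rose, CPSF2 (0.16, adjusted p = 0.0187), and 0 fell, beside 6.46% of all loci called in either direction. With RSL3 plus Fer-1 against DMSO 0 were called in either direction, beside 6.69% of all loci. In that comparison 3 had an unadjusted p under 0.05, beside 17.9% of all loci.

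Many replacement histones are made throughout the cycle from polyadenylated messages. They were listed with other variant histones, among them CENPA, H2AX and H3-4, to which this need not apply. Of 13 tested loci of this mixed list 1 rose with RSL3 against DMSO and 3 fell. Among all tested loci 9.04% were called higher and 7.46% lower. H2AZ2 fell to 316 ± 7.08 CPM with RSL3, against 361 ± 7.66 CPM with DMSO (log2 change -0.19, SE 0.0342, adjusted p = 0.000155), and so did H3-3A (log2 change -0.14, SE 0.0423, adjusted p = 0.0272). H3-4, at 8.22 and 11.6 CPM, fell by 0.50 (adjusted p = 0.0178). H2AZ1 and H3-3B had changes of -0.08 and -0.00 (adjusted p 0.114 and 0.983). With RSL3 plus Fer-1 against RSL3, H2AZ1 and H2AZ2 rose, with log2 changes of 0.14 and 0.17 (adjusted p 0.00764 and 0.00163) and 0 fell. Among all loci 2.47% were called higher there. With RSL3 plus Fer-1 against DMSO 0 rose and 1 fell, H3-4 (-0.68, adjusted p = 0.00324), beside 2.66% of all loci called lower.

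Among 26 histone chaperones 1 rose and 4 fell with RSL3, beside 16.5% of all tested loci called in either direction, which is close to the share of this list. The assembly factor NAP1L1 rose to 555 ± 23.2 CPM with RSL3, against 471 ± 6.80 CPM with DMSO (log2 change 0.24, SE 0.0335, adjusted p = 7.36e-06), and fell with Fer-1 (-0.20 against RSL3, adjusted p = 0.000208). ANP32E, SUPT16H, UBN2 and ATRX fell, ANP32E, a chaperone of H2A.Z, most (-0.27, adjusted p = 0.000232). With RSL3 plus Fer-1 against DMSO 1 rose, ASF1B, a donor of H3 and H4 to replicating DNA (0.23, adjusted p = 0.0338), and 1 fell, ANP32E (-0.20, adjusted p = 0.0113). Among all tested loci 6.69% were called in either direction in this comparison.

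Of 44 genes of S phase and DNA replication 3 rose with RSL3 against DMSO and 5 fell, again a share close to the 16.5% of all tested loci. CCNE1, the cyclin E that drives entry into S phase, stood at 12.7 ± 1.17 CPM with RSL3 and 9.10 ± 0.268 CPM with DMSO (log2 change 0.48, SE 0.128, adjusted p = 0.00907). FEN1, the flap endonuclease of the lagging strand, and the transcription factor E2F1 had log2 changes of 0.22 and 0.29 (adjusted p 0.0014 and 0.0380), while LIG1 and RRM2 were among those that fell. The list's median was -0.02, where that of the histone loci was 0.17, and the difference between lists was not tested. With RSL3 plus Fer-1 against RSL3 1 rose, the polymerase subunit POLD1 (0.20, adjusted p = 0.0166), and 0 fell, beside 6.46% of all loci called in either direction. Against DMSO 4 rose, among them GINS4 and FEN1 (0.21 and 0.20), and 0 fell, beside 4.03% of all loci called higher.

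Genes of G2 and mitosis fell with RSL3. Of 20, 16 fell with RSL3 against DMSO and 0 rose, beside 7.46% of all tested loci called lower. With RSL3 plus Fer-1 against RSL3 11 rose and 0 fell, beside 2.47% of all loci called higher. With RSL3 plus Fer-1 against DMSO 0 rose and 1 fell, beside 2.66% of all loci called lower. The kinesin KIF20A stood at 117 ± 1.52 CPM with RSL3 plus Fer-1, 97.4 ± 2.66 CPM with RSL3 and 129 ± 5.77 CPM with DMSO (SD, n = 3 each). Its log2 change was -0.41 for RSL3 against DMSO (adjusted p = 1.87e-07) and 0.27 for RSL3 plus Fer-1 against RSL3 (adjusted p = 0.000252). CENPF and CDC20 had changes of -0.30 and -0.26 against DMSO and of 0.25 and 0.23 with Fer-1. The histone median was 0.17 above DMSO both with and without Fer-1. Among 7 CDK inhibitors 1 fell with RSL3, CDKN2C (-0.51, adjusted p = 7.26e-05), beside 16.5% of all tested loci called in either direction. CDKN2C rose with Fer-1 (0.34, adjusted p = 0.0139), beside 6.46% of all loci called in either direction. With RSL3 plus Fer-1 against DMSO 0 CDK inhibitors were called, beside 6.69% of all loci. In that comparison 3 had an unadjusted p under 0.05, beside 17.9% of all loci.

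Other RNAs that lack a canonical poly(A) tail were read beside the histones, since recovery of such RNA can differ between libraries. Their 19 loci summed to 30116, 30141 and 30949 CPM with RSL3 plus Fer-1, 32789, 31438 and 29781 CPM with RSL3, and 27890, 29818 and 30851 CPM with DMSO. The libraries of the 3 groups overlapped, and DMSO replicate 1, lowest in the histone sum, was also lowest here. Of 18 tested 2 rose with RSL3 against DMSO, the 7SK RNA RN7SK (0.14, adjusted p = 0.0035) and MALAT1 (0.15, adjusted p = 6.79e-05), and SCARNA12 fell (-0.17, adjusted p = 0.00238). Among all tested loci 16.5% were called in either direction, which is close to the share of this list. RN7SK was also higher with RSL3 plus Fer-1 than with DMSO (0.13, adjusted p = 0.0131), and MALAT1 fell with Fer-1 (-0.12 against RSL3, adjusted p = 0.00332). The list's median was 0.01 with RSL3 against DMSO. The part of RNA recovery in the histone difference was not tested.

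**Figure D5:**
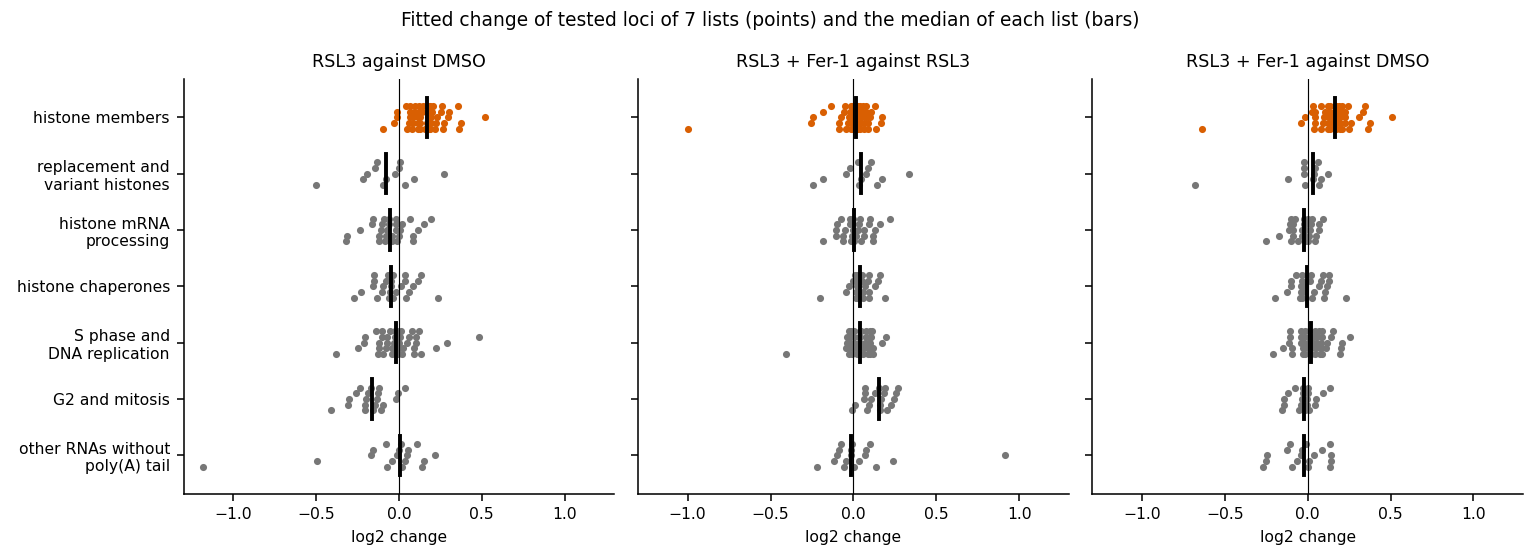
Fitted log2 change of the tested loci of 7 lists in the 3 comparisons (points: loci; black bars: list medians). Against DMSO the histone median lies at 0.17 in both comparisons, while the median of the G2 and mitosis list lies at -0.16 with RSL3 and at -0.02 with RSL3 plus Fer-1.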

How the data were processed

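The authors deposited, for each of 9 libraries of total RNA, whole-number counts and FPKM values per locus on GRCh38, per the file headers and the labels. Reads were trimmed with cutadapt 1.9, per the submitters' processing notes, while aligner, assembler and counter were not given in the sources used here, nor is it stated whether a count is a tally or a coverage estimate. Locus identifiers are those of an assembled transcriptome, so a locus may span more than 1 annotated gene.

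The deposited counts of named loci were tested with edgeR 4.0.16 (R 4.3.3), with TMM factors, all 9 libraries and 3 groups in 1 quasi-likelihood model, loci of at least 1 FPKM in at least 3 libraries (17297), and Benjamini-Hochberg adjustment at 0.05. The 1496 unnamed loci, 0.480 to 0.546% of counts, were left out. CPM used TMM-scaled totals of named loci, and 3 counts, the limit set by a count of 0, equal 0.0658 to 0.077 CPM, for counting error only. SE is the log2 change divided by the root of F. DESeq2 1.42.0, limma 3.58.1 on log2(FPKM + 1) and log2(FPKM + 0.1), other scalings and filters, a replicate block and leaving out libraries were alternatives. On simulated data with known changes, 8.70% of calls were false for RSL3 against DMSO, and for RSL3 plus Fer-1 7.01% when set against RSL3 and 9.46% when set against DMSO (5 draws of 17297 loci), above the nominal level. In each draw 50 loci of each size of change were altered, taken from all 17297 whatever their level. For RSL3 against DMSO 11.6% of changes of 0.25 on the log2 scale were recovered, and 45.2% of those of 0.5. The data held more called loci (2854 for RSL3 against DMSO), and most members are well counted. These shares therefore do not give the recovery of histone loci.

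Members described in full were the 12 with the smallest adjusted p in any comparison, with 1 uncalled example per family. The members and lists were chosen with earlier results of these data known. Some single-gene results are not reported here, and 1 locus is not drawn in 2 figures but stays in all counts and sums. Stem-loops came from GENCODE 29 transcripts and promoters from RefSeq (GRCh38.p14).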

Additional observations from a re-analysis of the deposited data

How the results depend on the processing

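Of the 16 members called with RSL3 against DMSO, 12 to 16 were called in each fit that left out a single library. Of all tested loci 12.5 to 16.2% were called in these fits, and the count of members ranged from 12 to 22. It was 4 without DMSO replicates 1 and 2, an alternative chosen after seeing the data, in which the median log2 change was 0.0872 for RSL3 and 0.0907 for RSL3 plus Fer-1 against DMSO. For RSL3 plus Fer-1 against DMSO the count was 8 with limma at either pseudocount, beside 2.92 and 2.95% of all loci. It was 9 to 21 when single libraries were left out, beside 4.11 to 7% of all loci. For RSL3 plus Fer-1 against RSL3 the fits without single libraries gave 0 to 4 calls, beside 4.32 to 6.46% of all loci. The median log2 change of members in them was -0.0244 to 0.0458. The cause of these shifts was not tested.

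Labels number the replicates, but same-numbered libraries did not deviate together (correlations -0.0497 to 0.0657), so the numbers were not taken as pairs. With a replicate block 16 members were called for RSL3 against DMSO, and for RSL3 plus Fer-1 3 when set against RSL3 and 15 when set against DMSO.

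Changes of sign touched values near 0. Without DMSO replicates 1 and 2, RSL3 against DMSO gave -0.00691 for H2AC12 and 0.0115 for H2BC17 (-0.0454 to 0.0294 without single libraries). For RSL3 plus Fer-1 against RSL3, H2AC8 stood at 0.00429 with upper quartile factors, 0.00405 with none, 0.00301 and 0.00313 with limma, 0.000636 with filterByExpr, 0.00377 without a filter, 0.000587 with the replicate block and -0.0642 to 0.0792 without single libraries. The joined H2AC17;H3C12 locus stood at 0.00308, 0.00313 and 0.00282 with upper quartile factors, no factors and no filter, and at -0.0163 to 0.0101 without single libraries. Without single libraries H4C2 ranged from -0.0595 to 0.0177, H2BC10 from -0.0102 to 0.0799, H1-5 from -0.0924 to 0.0331, H3C14 from -0.0913 to 0.0504 and H4C15 from -0.0299 to 0.099 in the same comparison, and H2BC9 from -0.0148 to 0.0733 for RSL3 plus Fer-1 against DMSO.

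H1-3 and the 10 untested loci had few counts, which limits what can be said of them.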
